A study of Drosophila melanogaster with 7 samples.

Results

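The regions described here are H3K4me3 peaks that carried every active list of the study at once, in wing imaginal discs, the pouches of larval epithelium from which the adult wing grows, of Drosophila melanogaster larvae of the third instar. The peaks were chosen by their width and by overlap of the peak lists: a peak was taken when it was under 1362 bp wide, overlapped a peak of ASH2, of polymerase Ser5P, of polymerase Ser2P and of H3K36me3 by at least 1 bp, and overlapped no H3K27me3 peak. This held for 344 of the 5868 H3K4me3 peaks, or 5.86%, and the 6 lists together held 74390 peaks. They are called fully marked peaks below, because no gene annotation of their genome build (dm3) was used and their place at transcription starts was therefore not checked.

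The study made chromatin immunoprecipitation libraries (ChIP-seq) of 6 targets, 1 library each, and 1 library of input DNA that was not analysed here. The targets were the protein ASH2, H3K4me3, H3K27me3, H3K36me3, and RNA polymerase II phosphorylated at serine 5 (Ser5P) or serine 2 (Ser2P) of its C-terminal repeat. All libraries came from flies grown in standard medium, with no genotype, treatment or strain given, and a disc holds several cell types, so lists that overlap need not overlap in the same cells. The label of the ASH2 library names ASH2 as the target and gives a catalogue number sold against the HA epitope tag, with no tagged line mentioned. The lists give positions only, so depth and peak height are unknown, no replicates could be compared, and the values below are descriptions without a test. Intervals are 95% and cover the counting of regions only, and values by chromosome arm (5 arms) show the spread inside 1 library.

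At an active Drosophila gene these marks follow the course of transcription. ASH2 is a subunit of the complexes that methylate H3 at lysine 4, and H3K4me3 sits on the nucleosomes at the start of the gene. Polymerase is phosphorylated at serine 5 as it leaves the promoter and at serine 2 as it elongates, and the Set2 methyltransferase that travels with elongating polymerase leaves H3K36me3 along the gene body. H3K27me3 is the mark of Polycomb repression.

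Fully marked peaks lay at the wide end of the range the rule allowed. Their H3K4me3 width had a median of 1030 bp (interval 999 to 1067), from 487 to 1361 bp, against 844 bp in the whole H3K4me3 list. That list also holds peaks over the limit and peaks with H3K27me3. Under the same limits the median was 925 bp in peaks with ASH2, Ser2P and H3K36me3 but no Ser5P. It was 695.5 bp in those with ASH2 and Ser5P but neither Ser2P nor H3K36me3, and 608 bp in those with ASH2 alone. The rule favours wide peaks, since a wide peak meets more partners, so these differences cannot be told apart from the choice. The widest peaks inside the limit measured 1349, 1358 and 1361 bp, and the narrowest that met all other conditions but lay outside it measured 1364, 1366 and 1367 bp. In all, 172 peaks met every condition except the width limit. A further 26 had the active lists and the width but overlapped H3K27me3, and 18 were too wide and overlapped H3K27me3.

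The partner peaks were wide for their lists, most of all for ASH2 and Ser5P, but less so beside the partners of other H3K4me3 peaks. ASH2 partners had a median width of 773.5 bp (722 to 835), against 237 bp for the whole ASH2 list. Ser5P partners had a median of 1166 bp (1112 to 1260) against 692 bp. Ser2P partners were closer to their list, at 984.5 against 849 bp, and so were H3K36me3 partners, at 1345.5 against 1257 bp. Partners at all H3K4me3 peaks that had one were of 691 bp for ASH2, 882 bp for Ser5P, 969.5 bp for Ser2P and 1503 bp for H3K36me3, so against these the excess of ASH2 was small and H3K36me3 partners of fully marked peaks were narrower. Peaks with ASH2, Ser2P and H3K36me3 but no Ser5P, the most alike class with 350 peaks, had ASH2 partners of 510 bp (466 to 585), a range that did not meet that of the fully marked peaks. Their H3K36me3 partners were of 1593.5 bp (1475 to 1716), wider by median but with overlapping intervals. The 802 peaks with ASH2 and Ser5P but neither Ser2P nor H3K36me3, called the class with Ser5P alone below, had Ser5P partners of 618.5 bp (591 to 654) and ASH2 partners of 867.5 bp (828 to 911).

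**Figure D1:**
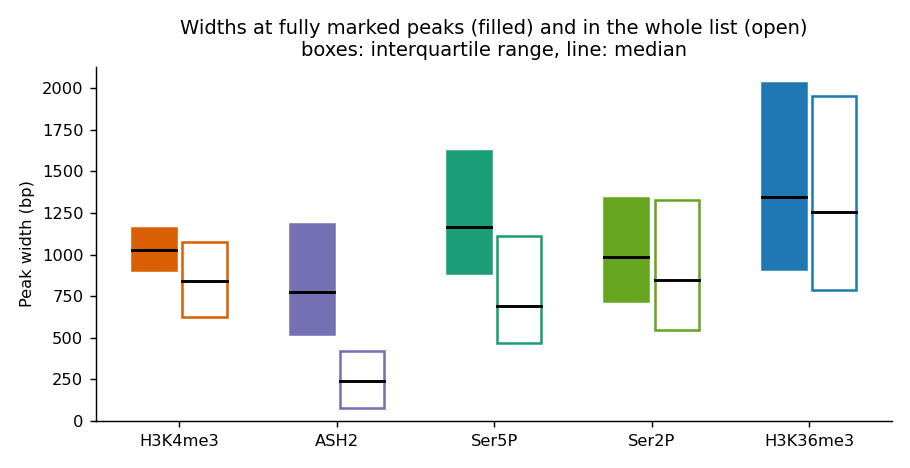
Peak width in bp (y axis) of H3K4me3, ASH2, Ser5P, Ser2P and H3K36me3 at the 344 fully marked peaks (filled boxes) and in each whole list (open boxes), as interquartile range with the median as a line. The medians differ most for ASH2 (773.5 against 237 bp) and Ser5P (1166 against 692 bp).

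Ser5P covered nearly the whole of a fully marked peak, Ser2P and H3K36me3 most of it, and ASH2 a little over 50% of it. The median share of a peak's bases under Ser5P was 96.2% (interval 94.99 to 97.3, arms 94.1 to 98.1), and Ser5P covered 106 peaks from end to end. The median was 86.6% for Ser2P (83.3 to 88.2, arms 82.5 to 90.9), which covered 34 peaks entirely. Under H3K36me3 it was 86.2% (85.4 to 87.0, arms 83.8 to 87.1), close to that of Ser2P. Yet H3K36me3 covered just 1 of the 344 peaks from end to end, so almost every H3K4me3 peak kept a stretch outside it. ASH2 varied most, with a median of 56.6% (51.9 to 61.1, arms 43.4 to 65.5), an interquartile range of 36.3 to 85.9%, and 140 peaks less than 50% covered. In 12 peaks the widest ASH2 partner was under 200 bp.

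Cover by ASH2 changed with peak width, and cover by the other lists did much less. Split into 4 groups of 86 by width, the narrowest (487 to 903 bp) had a median ASH2 cover of 79.8% and the widest (1160 to 1361 bp) 48.0%. The ASH2 partners themselves stayed of like width, at 788.5 and 769 bp, while those of Ser5P went from 805 to 1493.5 bp and those of H3K36me3 from 823.5 to 1682.5 bp. In the classes set beside them, median ASH2 cover was 39.8% in that without Ser5P and 92.9% in that with Ser5P alone, whose H3K4me3 peaks were narrower (median 695.5 bp).

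The 5 lists lay over one another in most of these regions. In 306 of 344 peaks (89.0%, 85.2 to 92.1) some bases were under all 5 lists at once, with a median length of 423.5 bp (383 to 459). In the other 38, each partner touched the H3K4me3 peak without a base common to all. The longest common stretch, 1212 bp, lay in the peak on 3L from 5757327 to 5758638, 1312 bp wide. The next were on 2R from 16882402 to 16883606 (1167 bp common), and on 2L from 10201092 to 10202203 (1061 bp), from 9967301 to 9968539 (1029 bp) and from 9896285 to 9897471 (1005 bp). ASH2 covered all 5 of these peaks entirely, unlike most members.

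To set the marks in order, each region was turned so that the midpoint of its H3K36me3 partner lay ahead of the H3K4me3 midpoint. The partner with the most overlap stood for each list. This direction pointed to higher coordinates in 160 peaks and to lower ones in 183, with 1 peak without a direction. The H3K36me3 midpoint lay a median of 306.75 bp ahead (211.5 to 396), and in 86 peaks under 100 bp, where the direction is least sure.

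Seen this way ASH2 lay behind, both polymerase forms near the centre, and H3K36me3 ahead. The ASH2 midpoint was on the side away from H3K36me3 in 295 of 344 peaks and toward it in 48, or 13.95% (10.5 to 18.1, arms 8.05 to 19.6), with a median position of -290.5 bp (-331 to -257). The Ser2P midpoint was toward H3K36me3 in 277 peaks, 80.5% (75.9 to 84.6, arms 75 to 89.1), at a median of 97 bp (82.5 to 124). Ser5P was toward it in 224 peaks, 65.1% (59.8 to 70.1, arms 60 to 72.7), at a median of 55.25 bp (29.5 to 80). The H3K4me3 midpoint enters both the direction and each offset, which by itself moves other marks toward H3K36me3, so the shares of Ser2P and Ser5P are to be read against other peaks measured alike. With the direction taken from the side with more H3K36me3 bases within 5000 bp, ASH2 was toward H3K36me3 at 35.5%, Ser2P at 60.2% and Ser5P at 55.8%, and with partners allowed within 500 bp Ser5P stood at 49.4%, with no preferred side.

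**Figure D2:**
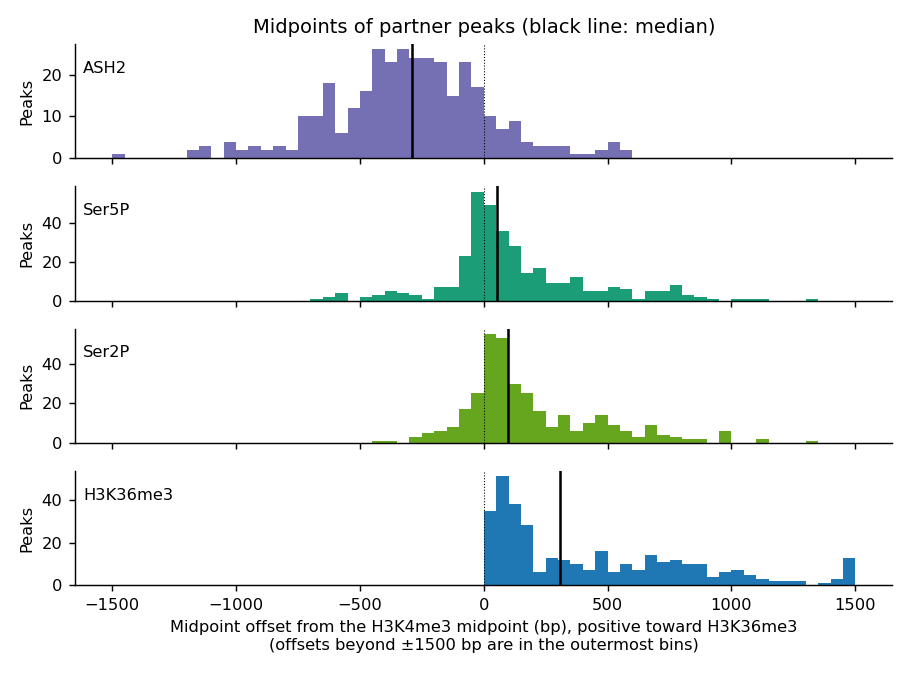
Number of fully marked peaks (y axes) by the midpoint offset in bp (x axis) of the ASH2, Ser5P, Ser2P and H3K36me3 partner from the H3K4me3 midpoint, positive toward H3K36me3, with the median as a black line. ASH2 is centred behind at -290.5 bp, Ser5P at 55.25 bp, Ser2P at 97 bp and H3K36me3, ahead by construction, at 306.75 bp.

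The order was shared with H3K4me3 peaks outside the fully marked ones. Among those with ASH2 and H3K36me3, the ASH2 midpoint was toward H3K36me3 at 12.3% of 1843, beside the 13.95% above. The Ser5P midpoint was toward it at 62.3% of 480 and the Ser2P midpoint at 85.3% of 916. The fully marked peaks thus lay within 5 percentage points of these shares for all 3, with Ser2P the farthest from its share and below it. All 3 sets of other peaks include those with every active list that failed only on width or H3K27me3. The class without Ser5P had ASH2 toward H3K36me3 at 6.86% of its peaks (4.44 to 10.03) and Ser2P at 87.1% (83.2 to 90.5).

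Between the polymerase forms the step was short. The H3K4me3 midpoint cancels out of this gap in length but still sets its direction. Ser2P lay ahead of Ser5P in 237 of 344 peaks, 68.9% (63.7 to 73.8, arms 57.6 to 75.9), by a median of 42.5 bp (32 to 51.5). The share was 71.1% in the 287 other H3K4me3 peaks that held Ser5P, Ser2P and H3K36me3. Most of these 287 also held ASH2 and failed on width alone (172), on H3K27me3 alone (26) or on both (18). ASH2 lay behind Ser5P in 293 peaks (85.2%, 81.0 to 88.8) by a median of 351.75 bp. Ser2P in turn lay behind H3K36me3 in 284 peaks (82.6%, 78.1 to 86.4) by a median of 92.5 bp. The direction puts H3K36me3 ahead of the H3K4me3 midpoint by construction, which favours pairs and sequences with H3K36me3 in front. The 24 possible sequences were thus not equally open. The commonest was ASH2, Ser5P, Ser2P, H3K36me3, in 161 peaks (46.8%). The same with Ser2P and Ser5P exchanged came next, in 68 peaks, then that with H3K36me3 and Ser2P exchanged, in 38.

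ASH2 lay nearer to the centre where the H3K36me3 offset was small, and beyond that its position changed little. In the 86 peaks with the smallest H3K36me3 offset (0 to 98.5 bp), ASH2 was toward H3K36me3 at 27.9% (18.8 to 38.6) with a median position of -109.75 bp. In the 86 with the largest (730.5 to 2810 bp) it was toward it at 6.98% (2.60 to 14.6) with a median of -359.75 bp. The groups between had medians of -292.75 and -353.5 bp, so most of the change fell in the group with the least sure direction. Ser5P was toward H3K36me3 at 36.05% (25.97 to 47.1) in the first of these groups and at 79.1% (69.0 to 87.1) in the last. The Ser2P share hardly moved, at 74.4 and 80.2%. H3K4me3 width was a median of 931 bp in the first and 1086.5 bp in the last group.

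The edges of the peaks showed the same arrangement. In median positions from the H3K4me3 midpoint, negative behind it, H3K4me3 ran from -515 to 515 bp. ASH2 began at -651 and ended at 84.25 bp, and Ser5P ran from -509.75 to 605.5 bp, nearly matching the rear edge of H3K4me3. Ser2P began later, at -408 bp, and H3K36me3 later still, at -353.25 bp, ending at 979 bp (799 to 1103.5). The rear edge of H3K36me3 lay inside the H3K4me3 peak in 343 of 344 peaks, a median of 134 bp in from its rear edge. The choice of direction sets this count, since a partner with its midpoint ahead reaches the rear edge only by covering the whole peak. It also favours H3K36me3 running past the front edge. The rear edge of Ser2P lay inside in 299. The rear edge of Ser5P lay inside in 176, about as often as outside. H3K36me3 ran past the front edge in 295 peaks, Ser5P in 227 and Ser2P in 224, and ASH2 in 59.

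The peak nearest to the median width of its arm was laid out for each arm, and on 2L, 3L and X, where 2 peaks were equally near, both are given. On 2L the H3K4me3 peak ran from 6046971 to 6047970, with H3K36me3 toward lower coordinates (6046871 to 6047858), Ser2P from 6046921 to 6047985, Ser5P from 6047005 to 6047994, and ASH2 behind from 6047642 to 6048756. In the tied peak, from 16743468 to 16744471, ASH2 covered 92.4% and its midpoint lay close to the centre, at -63.5 bp. On 3L the H3K4me3 peak, from 1795642 to 1796703, had ASH2 behind from 1794872 to 1796224, while Ser5P (1795551 to 1798278), Ser2P (1795656 to 1798182) and H3K36me3 (1795686 to 1798151) all ran on ahead. Its tied peak, from 22870181 to 22871247, differed, with ASH2 over 92.7% of it and a midpoint at 101.5 bp, toward H3K36me3. The peak on 3R from 20480782 to 20481796 had the shape of the first 3L peak, with ASH2 from 20480199 to 20481301 and H3K36me3 from 20480933 to 20483571. On 2R, at 16149322 to 16150332, the ASH2 partner was 450 bp wide with its midpoint at -235.5 bp. On X the peak from 2503351 to 2504418 had an ASH2 partner of 231 bp, from 2503173 to 2503403, which lay at the H3K36me3 end and covered 4.96% of it, while in the tied peak, from 4025169 to 4026240, ASH2 covered 91.5% with its midpoint at -61 bp. ASH2 thus lay over 200 bp behind in the peaks named on 2R and 3R and in 1 of the 2 each on 2L and 3L, and near the centre or ahead in the others.

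Another H3K4me3 peak often stood close behind. The cover by H3K4me3 dropped to 7.00% of peaks at -675 bp and returned to 47.2% at -1325 bp, whereas ahead it dropped to 3.21% at 675 bp and, as far as 4000 bp, did not pass 20.4%. Of 343 fully marked peaks, 187 had another H3K4me3 peak within 1000 bp behind (54.5%, 49.1 to 59.9), and 75 had one within 1000 bp ahead (21.9%, 17.6 to 26.6). ASH2 reached past the peak more often behind than ahead: it covered 52.2% of the regions at -675 bp and 15.7% at 675 bp. These shares are of all 343 regions, with or without a neighbouring H3K4me3 peak, so they do not show how often ASH2 bridged a gap. In 73 of the 187 cases the same ASH2 peak reached both H3K4me3 peaks, against 8 of the 75 ahead. The class without Ser5P had a like imbalance, with 58.6% (53.2 to 63.8) behind and 21.1% (17.0 to 25.8) ahead. H3K36me3 covered 0.875% of regions at -625 bp and 64.7% at 1050 bp, a difference between the sides that the choice of direction sets.

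**Figure D3:**
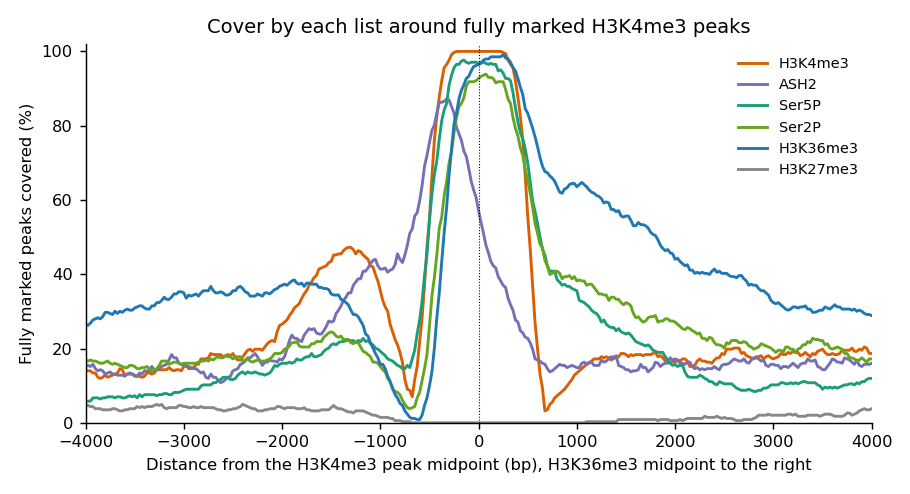
Share of fully marked peaks in percent (y axis) covered by each of the 6 lists at each distance in bp from the H3K4me3 midpoint (x axis), turned so that the H3K36me3 midpoint lies to the right (343 peaks). ASH2 has its maximum of 87.2% at -325 bp, H3K36me3 is highest at 250 bp (99.1%), and a second rise of H3K4me3 to 47.2% stands at -1325 bp.

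Fully marked peaks were spread over the 5 arms, with more on chromosome 2 than elsewhere. The arm 2L held 80 and 2R 87, which is 7.71% (6.16 to 9.50) and 7.21% (5.82 to 8.82) of the H3K4me3 peaks there. On 3L there were 66 (5.58%, 4.34 to 7.04), on 3R 65 (4.58%, 3.55 to 5.80) and on X 46 (4.51%, 3.32 to 5.96). Per Mb they numbered from 2.05 on X to 4.11 on 2R. Of 121 windows of 1 Mb with an H3K4me3 peak, 19 held no fully marked peak and the median was 2. The fullest, chosen after the counts were seen, was 2L from 10000001 to 11000000 with 10 of 85 H3K4me3 peaks, followed by 2R from 5000001 to 6000000 with 9 of 81.

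In the lists as deposited, fully marked peaks stood next to each other somewhat more often than their share of the list, but not on every arm or with every setting. In the ordered H3K4me3 list, the next peak on either side was also fully marked in 60 of 688 cases, 8.72% (6.72 to 11.1), beside their 5.86% share. Both ends of each of the 30 adjacent pairs are counted, so that interval is too narrow. By arm the value went from 3.03% on 3L (4 of 132 cases), below the 5.58% share there, to 12.5% on 2L (20 of 160). With the wider 50% of each active list it was 1.52% of 264 cases (0.414 to 3.83). That interval includes the share of 2.25% that those lists gave. With 50% of the peak covered by each active list it was 5% of 360 cases (2.99 to 7.79), which includes the share of 3.07% there. The ratio to the class's own share was 1.49 here, 1.48 in the class without Ser5P, 1.16 in that with Ser5P alone and 1.23 in the 1224 peaks with ASH2 and no other active list. The median gap between fully marked peaks along an arm was 170106 bp, compared with 162329 bp in the class without Ser5P, which holds nearly as many peaks. The nearest other fully marked peak lay within 5 kb of 57 of them and within 100 kb of 207.

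**Figure D4:**
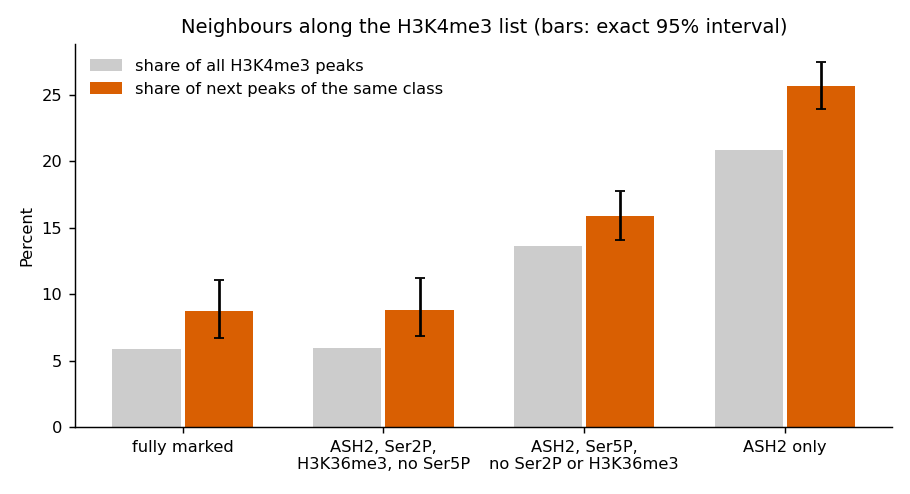
Percent (y axis) of all H3K4me3 peaks that belong to a class (grey) and of the next H3K4me3 peaks along the arm that belong to the same class (orange, with exact 95% intervals), for 4 classes of H3K4me3 peak (x axis). In the lists as deposited the orange bar is above the grey one in each class, at 8.72 against 5.86% for the fully marked peaks. With the wider 50% of each active list the value for the fully marked peaks was 1.52% (0.414 to 3.83), an interval that includes their share of 2.25%.

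Most adjacent pairs were close, and most of the close ones faced away from each other by the direction of their H3K36me3 partners. The 30 pairs had a median midpoint distance of 1513 bp, and 25 lay under 5000 bp apart. Among these 25, H3K36me3 pointed outward from both peaks in 15, inward in 6, and the same way in 4. Pairs of each kind included peaks with the H3K36me3 midpoint under 100 bp off, where the direction is least sure. For example, it was -67.5 bp off in the left peak of the outward pair on 2L from 293575 to 296126. No other class was set beside these counts. In 7 pairs both peaks met the same ASH2 peak, in 2 the same Ser5P peak, in 1 the same H3K36me3 peak and in none the same Ser2P peak, so these members are not independent regions. An outward pair on 3R, from 7041085 to 7043308, shared both its ASH2 and its Ser5P peak, as did that on 3R from 16646798 to 16648892. Longer runs were few: 286 peaks stood alone, 26 runs held 2 and 2 runs held 3. One run of 3 spanned 6465 bp on 3L, from 16581643 to 16588107. The other spanned 219887 bp on 2R, from 1648336 to 1868222. The shortest run of 2 lay on 2L from 11010225 to 11012113.

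The next H3K4me3 peaks resembled the list at large in ASH2 and had the elongation marks more often. Of the 688 next peaks, 84.9% held ASH2 (82.0 to 87.5), beside 85.4% of the next peaks of all H3K4me3 peaks. Ser2P was at 41.7% (38 to 45.5) beside 32.2%, H3K36me3 at 52.3% (48.5 to 56.1) beside 45.8%, and Ser5P at 43.3% (39.6 to 47.1) beside 37.3%. H3K27me3 was at 5.52% of them (3.94 to 7.50) beside 7.98%. Next to the class without Ser5P the shares were alike for Ser2P (41%) and H3K36me3 (54.4%), and Ser5P was at 37.1% (33.6 to 40.8).

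The last comparison set these regions against H3K27me3, whose peaks formed 3800 domains once gaps of 5000 bp or less were bridged. A peak with no other within that reach counted as a domain by itself, whatever its width. For a region outside domains, the distance is thus that to the nearest H3K27me3 peak of any width. The distance from a fully marked peak to its nearest domain had a median of 10672 bp (8236 to 12019), with an interquartile range of 4339 to 21953 bp. The 5055 other H3K4me3 peaks without H3K27me3 lay 8314 bp away (7950 to 8680), the class without Ser5P 7620 bp (6846 to 8766) and that with Ser5P alone 8523 bp (7739 to 9634). Within 5000 bp of a domain were 105 fully marked peaks, 30.5% (25.7 to 35.7), against 35.2% of the other peaks. No H3K27me3 lay within 10 kb of the midpoint in 180 of them (52.3%, 46.9 to 57.7), compared with 45.5% of the other peaks.

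That distance followed the arm, and within arms the intervals of fully marked and other peaks overlapped. On 2L the medians were 19042 bp for fully marked peaks (12802 to 21925) and 15035 bp for the others (13835 to 15991). On 2R they were 12546 and 11827 bp, on 3L 12724 and 9882 bp, and on X 4924 and 4152 bp. On 3R the order turned, at 4619 and 4886 bp. Domains were sparsest on 2L, at 21.9 per Mb, and densest on X, at 39.2 per Mb, and 2L and 2R held 167 of the fully marked peaks, so the pooled difference also carries the mix of arms.

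**Figure D5:**
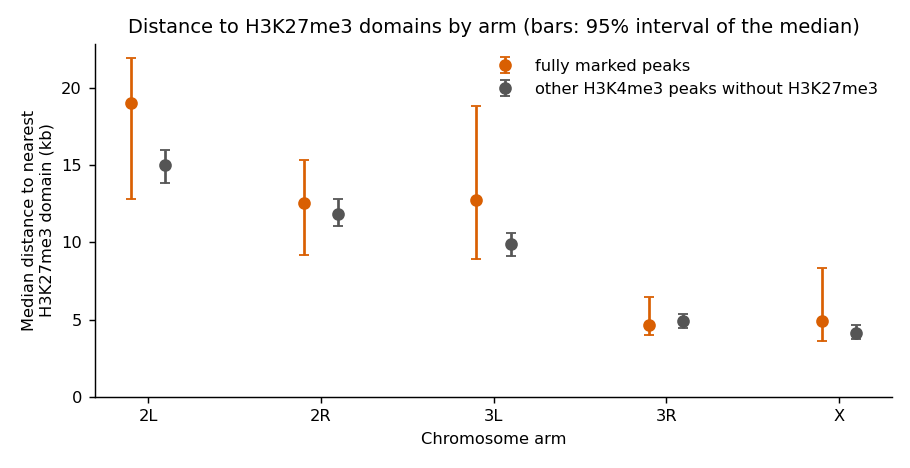
Median distance in kb (y axis) from fully marked peaks (orange) and from other H3K4me3 peaks without H3K27me3 (grey) to the nearest H3K27me3 domain on each chromosome arm (x axis), with 95% intervals of the median. The 2 intervals overlap on each arm, and both medians are lowest on 3R and X.

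Close to a fully marked peak, H3K27me3 lay behind more often than ahead, and farther out the sides were alike. Of the 335 peaks outside domains with a domain on both sides, 29 had one within 2000 bp behind (8.66%, 5.87 to 12.2) and 6 within 2000 bp ahead (1.79%, 0.660 to 3.86). Within 5000 bp the counts were 59 and 48, and within 10000 bp 106 and 93. The nearest domain lay on the H3K36me3 side in 159 (47.5%, 42.0 to 53.0), and the median distance was 20010 bp on that side and 19666 bp on the other. The side ahead holds H3K36me3 by construction, and its part in the difference near the peak was not tested. Domains longer than 20 kb, of which there were 389, lay a median of 93193 bp away (84199 to 114783). Within 5000 bp of one were 25 fully marked peaks (7.27%, 4.76 to 10.5). The 5055 other H3K4me3 peaks without H3K27me3 were alike, with a median of 87521 bp (83205 to 92078) and 7.91% within 5000 bp.

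A few fully marked peaks stood at or inside domains. The nearest outside one, on X from 6418456 to 6419345, was 233 bp from a domain of 1860 bp. The next, on 2L from 1974061 to 1975130, was 316 bp from the end of a domain of 34860 bp, and that on 2R from 15177566 to 15178480 was 339 bp from one of 4061 bp. In 8 peaks (2.33%, 1.01 to 4.53) the region lay within a domain, beside 3.86% of the 5055 other H3K4me3 peaks without H3K27me3. The class without Ser5P stood at 2.00% and that with Ser5P alone at 5.11%. The 8 fully marked peaks lay in gaps between the H3K27me3 peaks of a domain, and 5 of these were on 3R. The longest such domain, on 2L from 490915 to 558528, joined 34 H3K27me3 peaks around the fully marked peak at 541589 to 542657. Another, on 3R from 23470886 to 23517807, joined 27 around the peak at 23503262 to 23504507. At the other extreme stood the peak on 3R from 12473495 to 12474374, 477373 bp from the nearest domain, followed on the same arm by the peaks at 2192675 to 2193946, at 193008 bp, and at 2170885 to 2171645, at 171218 bp.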

How the data were processed

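The authors deposited 1 list of peak positions per library, with chromosome, start and end and no score, in dm3 coordinates per the submitters' processing notes. The aligner, peak caller and threshold are, like the use of the input, not given in the sources used here. Starts were raised by 1 so that printed positions count from 1. Entries with equal start and end (306 for ASH2, 108 for H3K27me3, 2 for H3K4me3 and 1 for H3K36me3) were kept and counted as 1 bp in overlaps. The only gene table used here is of another genome release (Release 6), so no gene was assigned and no sequence is shown.

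Overlaps, cover, offsets, neighbours and distances were computed with Python 3.11.15, numpy 2.4.6, pandas 2.3.3 and scipy 1.17.1, and tested on simulated data. For counts per Mb, the last peak end in any list set the length of an arm. Shares have exact (Clopper-Pearson) intervals, and medians have intervals from binomial order statistics. Regions named are the 5 with the longest stretch under all 5 lists, the typical one of each arm, the 3 longest runs (the third place was tied and the shortest run was taken), the 3 nearest to and 3 farthest from a domain, and those at the width limit. Adjacent pairs, 1 Mb windows and peaks inside domains that are named outside this rule were chosen after their values were seen. The members and the comparisons were chosen with earlier results of these data known.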

Additional observations from a re-analysis of the deposited data

How the results depend on the processing

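No paired analysis was possible because each target has 1 library. Of 88 values under other settings, 57 stayed within the interval of the reported value (or, for counts, within 1.5 times) and 31 moved. The cause of these moves was not tested beyond what each setting itself changes.

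With 50% of the peak covered by each active list, 180 peaks remained, with a median width of 994.5 bp. ASH2 cover was 82.1%, Ser5P cover was 94.8%, and ASH2 was toward H3K36me3 at 18.3%. The next peak was fully marked in 5% of 360 cases (2.99 to 7.79), an interval that includes the share of 3.07%. Allowing partners within 500 bp gave 796 peaks, a width of 940.5 bp, cover of 87.0% by Ser5P, 76.7% by Ser2P and 80.1% by H3K36me3, and shares toward H3K36me3 of 72.9% for Ser2P, 49.4% for Ser5P (no longer the larger part) and 22.6% for ASH2. The next peak then qualified in 31.4% of cases, beside a share of 13.6%. With this reach, H3K4me3 peaks that lie close together can meet the same partner peaks, and how much this adds was not tested. With no width limit the median width was 1159.5 bp. Without partner entries under 200 bp the distance to a domain was 13769 bp, as fewer H3K27me3 entries were left. The wider 50% of each active list left 132 peaks of 1111 bp, with cover of 45.2% by ASH2, 99.6% by Ser5P and 92.0% by Ser2P, and shares toward H3K36me3 of 91.7% for Ser2P, 87.1% for Ser5P and 4.55% for ASH2. The next peak then qualified in 1.52% of 264 cases (0.414 to 3.83), an interval that includes the share of 2.25%. The excess of adjacent peaks was thus not seen with those lists, where few cases remained.

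Taking the direction from the side with more H3K36me3 within 5000 bp, the shares were 60.2% for Ser2P, 55.8% for Ser5P and 35.5% for ASH2: each stayed on its side of 50% and came nearer to it. Among peaks with H3K36me3 at least 100 bp off, a setting added after seeing the data, they were 74.8% for Ser5P and 9.30% for ASH2. Other domain gaps (1000 and 10000 bp) could not move the median distance, since joining peaks leaves the nearest edge in place, and they say nothing about its stability. Peaks below the authors' threshold are outside these lists, so a list without a peak does not show that the mark is absent.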

Other observations

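H3K4me3 peaks that missed the rule by 1 list lay about as near to that list as other peaks that lacked it, for ASH2 and H3K36me3, and somewhat nearer for Ser5P and Ser2P. Under the same width limit and without H3K27me3, 56 peaks lacked only ASH2, and 30 of them (53.6%) had an ASH2 peak within 500 bp, beside 54.5% of all 715 that lacked ASH2. Another 328 lacked only H3K36me3, with 99 (30.2%) within 500 bp, beside 30.6% of 2746. Those that lacked only Ser2P numbered 152, with 36 (23.7%) within 500 bp, beside 17.1% of 3484. Of 350 that lacked only Ser5P, 75 (21.4%) had it within 500 bp, beside 17.5% of 3157. The larger groups contain the smaller ones, the differences were not tested, and shares of different lists are not on a common scale, since the ASH2 list is far longer than the other active lists. H3K4me3 peaks that lacked only H3K36me3 had a median width of 778 bp, and the other 3 groups had medians from 925 to 974.5 bp.

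The partners of the fully marked peaks made up different shares of their lists: 345 of 3732 Ser5P peaks (9.24%), 351 of 4828 Ser2P peaks (7.27%), 344 of 5760 H3K36me3 peaks (5.97%) and 368 of 31582 ASH2 peaks (1.17%).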
